A study of Mus musculus with 10 samples.

Results

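The Krüppel-like factor (KLF) genes examined here are Klf2, Klf3, Klf4, Klf6, Klf7, Klf9, Klf10, Klf11, Klf12 and Klf13, described through the open chromatin regions (OCRs) assigned to them in group 2 innate lymphoid cells (ILC2s) of 5 mouse tissues. A region was assigned to one of these genes when its centre lay inside the gene or when the nearest curated RefSeq transcription start site (TSS) belonged to it, and 97 of the 50039 regions of the series met this rule. All 97 passed the filter of at least 1 count over the libraries. Klf4 held 18 regions, Klf7 16, Klf12 15, Klf2 and Klf13 10 each, Klf6 7, Klf3 6, and Klf9, Klf10 and Klf11 5 each. The assignment is by position and does not show that a region acts on the gene: 40 of the 97 lay over 50 kb from the TSS, the farthest at 589.9 kb, and 5 of the 10 Klf2 regions lay inside the neighbouring gene Eps15l1.

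The assay was ATAC-seq, in which a transposase cuts and tags accessible DNA, so that the reads at a region measure how open it is. ILC2s were sorted from the small intestine (SI), pancreas, lung, large intestine (LI) and bone marrow (BM) of untreated wild-type C57BL/6 male mice aged 6 weeks, with 2 libraries per tissue and 50000 cells in each, drawn from 10 pooled mice for both intestinal tissues and from 16 for each of the others, so that the intestinal contrast is also one of pool size. The sorting gate differed between tissues: BM cells were taken by ST2 and CD25, those of LI, lung and pancreas also by CD45 and CD127, and those of SI by KLRG1 with CD127, Thy1 and CD45 in place of ST2 and CD25, and tissue and gate cannot be told apart. BM cells were sorted on another machine than all other cells, so that BM and sorter cannot be told apart either. With sorted bulk cells, a region open in fewer cells and a region less open in each cell cannot be told apart either.

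KLFs are zinc-finger transcription factors that bind CACCC boxes and GC-rich promoter elements, where they compete with one another and with SP proteins. KLF2, KLF4, KLF6 and KLF7 act mainly as activators, KLF3 and KLF12 recruit the corepressor CtBP, and KLF9, KLF10, KLF11 and KLF13 recruit SIN3A. In lymphocytes KLF2 keeps cells quiescent and maintains the expression of S1pr1, the gene of an egress receptor.

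Of these 97 regions, 5 are shown by the 200 bases around their centre, because they are distal regions on which the tissue differences described below turn. Intergenic here means outside promoters and outside every curated RefSeq transcript, and predicted transcripts were not considered. The sequences were read from the plus strand of GRCm38 (mm10), in capitals where the bases match 1 of 11 motifs searched on both strands and in lower case elsewhere. The motifs were the CACCC box CCNCACCC, the GC box GGGGCGG, the AP-1 site TGANTCA, the GATA site AGATAA, the RUNX site TGTGGT, the ETS site CCGGAAG, the ROR site TAGGTCA, the NF-kB site GGGNNTTCC, the TCF/LEF site CTTTGAA, the IRF site GAAANNGAA and the glucocorticoid response element ACANNNTGT, which share bases where they overlap.
Klf6, 51.9 kb downstream of the TSS, intergenic, open in LI and pancreas, chr13:5913337-5913536: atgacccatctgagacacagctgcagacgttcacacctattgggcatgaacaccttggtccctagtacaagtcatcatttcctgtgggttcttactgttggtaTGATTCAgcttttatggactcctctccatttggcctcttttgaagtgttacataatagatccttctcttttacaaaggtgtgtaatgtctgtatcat
Klf4, 538.3 kb upstream, intergenic, open in LI and SI, chr4:56070677-56070876: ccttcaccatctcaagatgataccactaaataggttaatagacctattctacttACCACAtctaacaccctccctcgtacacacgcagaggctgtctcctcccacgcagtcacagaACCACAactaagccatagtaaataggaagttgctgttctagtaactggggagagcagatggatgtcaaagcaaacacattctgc
Klf12, 309.6 kb upstream, intergenic, low in SI, chr14:100459254-100459453: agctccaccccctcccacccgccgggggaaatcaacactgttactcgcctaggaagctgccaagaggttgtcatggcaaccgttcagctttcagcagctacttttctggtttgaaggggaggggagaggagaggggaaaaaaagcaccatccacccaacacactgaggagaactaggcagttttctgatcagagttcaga
Klf12, 72.6 kb upstream, intergenic, low in SI and high in BM, chr14:100222315-100222514: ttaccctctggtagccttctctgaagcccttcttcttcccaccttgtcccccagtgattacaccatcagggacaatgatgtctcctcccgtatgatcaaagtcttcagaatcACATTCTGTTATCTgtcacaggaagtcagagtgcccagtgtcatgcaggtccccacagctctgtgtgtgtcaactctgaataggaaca
Klf13, intron 1, 5.6 kb downstream of the TSS, high in pancreas, chr7:63933203-63933402: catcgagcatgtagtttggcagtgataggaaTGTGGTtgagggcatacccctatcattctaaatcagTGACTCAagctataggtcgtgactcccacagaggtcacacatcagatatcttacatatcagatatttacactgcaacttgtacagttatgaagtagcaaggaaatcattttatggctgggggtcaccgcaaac

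The Klf6 window held an AP-1 match, the Klf4 window 2 RUNX matches, the Klf12 window at 72.6 kb a glucocorticoid response element overlapping a GATA match, and the Klf13 window a RUNX and an AP-1 match. The Klf12 window at 309.6 kb held none of the 11 motifs. In the 500 bases around the centre, 22.7% of the 97 regions held a CACCC box against 21.9% of all 50039, 28.9% an AP-1 site against 23.2%, 41.2% a RUNX site against 39.1%, 24.7% a GATA site against 24.8%, and 20.6% a glucocorticoid response element against 14.7%. A GC box was held by 17.5% against 19.7% and an ETS site by 4.12% against 8.93%. An NF-kB site was held by 6.19% against 10.6% and a ROR site by 3.09% against 5.01%. For the TCF/LEF site the shares were 11.3% and 9.40%, and for the IRF site 16.5% and 14.9%. Promoters made up 8 of the 97 regions and 9631 of all 50039, which bears on these shares. Outside promoters they were 29.2% and 26.6% for the AP-1 site and 21.3% and 16.7% for the glucocorticoid response element. For the GC box they were 13.5% and 11.8% there, and for the ETS site 4.49% and 5.91%. At promoters a GC box was held by 5 of 8 against 52.8% of all, and an ETS site by 0 of 8 against 21.6%. A match describes the letters and shows no binding.

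Each library held 10282987 to 32797872 counts over the regions, with replicate pairs correlated at Spearman 0.927 to 0.975 but differing beyond counting noise. P-values rest on the spread between replicate pools, estimated for each region over the 5 tissues together. They do not measure the spread between the 2 pools of a given tissue alone. Values below are counts at a region per 1e6 counts of its library after TMM scaling (CPM), differences are log2 fold changes with their standard error, and adjusted p-values come from edgeR's quasi-likelihood test with Benjamini-Hochberg adjustment over the 49981 regions tested. At ILC2 marker genes, 8 of 9 had promoter regions, summing to 227 to 377 CPM per library. Among them Il1rl1, the gene of ST2, was at 3.55 to 4.53 CPM in SI and at 10.4 to 41.9 CPM in the other libraries, and Klrg1 was at 11.2 and 11.5 CPM in BM and at 35.2 to 75.4 CPM in the other libraries. Their part in the results below was not tested. Markers of other cells had no promoter region for B cells, myeloid cells, mast cells or basophils, NK cells or ILC1s, ILC3s, epithelium, endothelium and acinar cells. For T cells, 2 of 5 markers had one, Cd3e at 2.35 to 5.25 CPM and Cd3g at 1.32 to 5.93 CPM.

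Accessibility differed among the 5 tissues at 54 of the 97 KLF regions by the F-test (55.7%), where the background was 44.2% of all regions tested. At promoter regions, whose centre lay at most 1000 bp before or 100 bp after a TSS, 3 of 8 were called against 30.9% of all promoters, and elsewhere 51 of 89 (57.3%) against 47.3%. Each tissue was then set against the mean of the other 4. BM was higher at 22 regions (background 14.9%) and lower at 19 (background 17.0%). LI was higher at 13 (background 8.80%) and lower at none (background 1.27%). Lung was higher at 7 (background 6.53%) and lower at 6 (background 7.03%). Pancreas was higher at 13 (background 8.27%) and lower at 1 (background 2.11%). SI was higher at 8 (background 11.8%) and lower at 18 (background 10.2%). Intestinal tissues, LI with SI, were higher than BM, lung and pancreas at 16 (background 14.9%) and lower at 11 (background 8.51%).

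Tissue-specific OCRs were those higher in 1 tissue than in each of the other 4 at an unadjusted p under 0.05. They numbered 14 among the 97 (background 11.3%), of which BM held 5, LI 4, pancreas and SI 2 each and lung 1. Of the 5667 among all 49981 regions tested, BM held 2249, LI 650, pancreas 715, SI 1401 and lung 652. Regions lower in 1 tissue than in each of the other 4 numbered 15 (background 12.7%), 7 in BM, 7 in SI and 1 in lung. Of the 6324 such regions among all tested, LI held 66, pancreas 286, lung 862, SI 1794 and BM 3316. BM thus had the largest count of both kinds over all regions, so a large BM count was not particular to the KLF genes. The median SI contrast was -0.24 over the 97 regions and 0.03 over all regions tested, and the median BM contrast was -0.09 and 0.00. Of the 54 regions called in the F-test, 27 remained called whichever library was left out. At total library size without TMM the BM calls were 11 higher and 20 lower and the SI calls 14 higher and 15 lower, since that scaling moved the median of all regions by -0.08 in BM and 0.17 in SI.

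**Figure D1:**
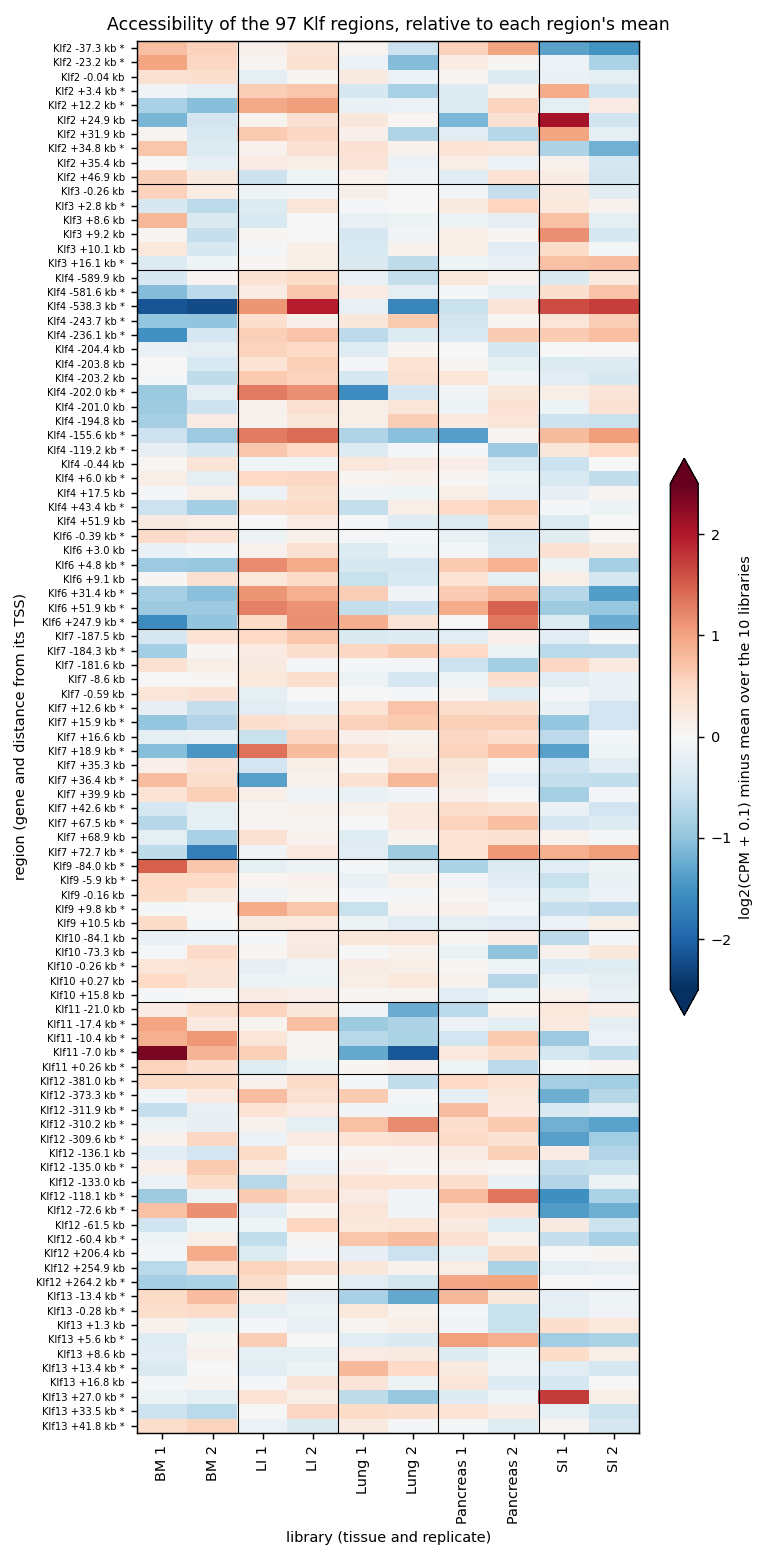
Colours give log2(CPM + 0.1) of each of the 97 KLF regions (rows, by gene and by distance from the TSS in kb) in the 10 libraries (columns), minus the mean of the row. An asterisk marks the 54 regions called in the F-test, and most Klf12 rows upstream of the TSS are blue (below the mean) in SI, while several Klf4 rows far upstream are red (above it) in LI and SI.

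**Figure D2:**
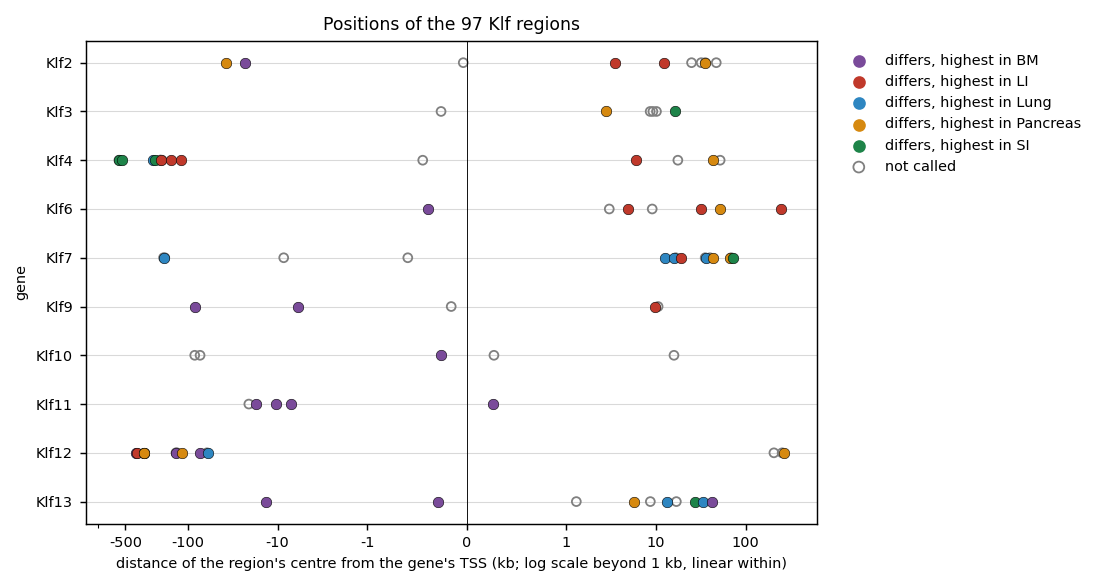
The horizontal axis gives the distance of each region's centre from the gene's TSS in kb, on a log scale beyond 1 kb and linear within it, and each line is a gene. Filled points are the 54 regions called in the F-test, coloured by the tissue with the highest mean CPM, and open points are the other 43.

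Among the activators, Klf6 had 2 regions downstream of its TSS that were most open in LI and pancreas and lower in BM, lung and SI. KLF6 is an early response gene with a tumour suppressor role. The intergenic region 51.9 kb downstream (chr13:5913164-5913708) was at 11.2 and 10.1 CPM in LI and at 8.89 and 13.1 CPM in pancreas, against 2.40 and 2.39 in BM, 3.02 and 3.15 in lung and 2.46 and 2.33 in SI. Both LI and both pancreas libraries lay above the other 6. LI exceeded the mean of the other 4 tissues by 1.51 ± 0.21 (SE, adjusted p = 0.00027) and pancreas by 1.56 ± 0.21 (adjusted p = 0.00017), and each of these calls held whichever library was left out. LI and pancreas differed by -0.04 ± 0.28 (adjusted p = 0.978), and BM and SI by 0.00 ± 0.31 (adjusted p = 0.997).

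The region in intron 2 of Klf6 (chr13:5866075-5866601), 4.8 kb from the TSS, was also most open in LI and pancreas, with 26.2 and 22 CPM in LI, 18.1 and 21.0 in pancreas, 8.66 and 8.53 in lung, 10.5 and 6.44 in SI and 6.07 and 5.94 in BM. LI exceeded the mean of the others by 1.32 ± 0.19 (adjusted p = 0.00028) and pancreas by 0.95 ± 0.19 (adjusted p = 0.004), the latter lost without pancreas replicate 2 (0.84, adjusted p = 0.115). A further region 31.4 kb downstream was at 4.01 and 3.43 CPM in LI, 2.89 and 3.24 in pancreas and at most 1.06 in BM and SI, with lung between at 2.82 and 1.71. Here the LI contrast of 1.29 ± 0.34 (adjusted p = 0.021) was lost without either LI library (adjusted p = 0.169 and 0.12). At 247.9 kb downstream BM was lower by -1.78 ± 0.54 (adjusted p = 0.019), lost without either BM library (adjusted p = 0.2 and 0.0745), at values under 4 CPM throughout. The region in intron 1 at 3.0 kb, at 32.0 to 53.1 CPM, was not called in the F-test (adjusted p = 0.064), although the intestinal tissues were called higher by 0.45 ± 0.12 (adjusted p = 0.013), a call lost without LI replicate 2 (adjusted p = 0.0958).

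At Klf4, 7 of the 9 regions called in the F-test lay more than 100 kb upstream, and at these 7 the intestinal tissues were called higher. KLF4 governs monocyte and goblet cell differentiation and is a reprogramming factor. Of the 13 regions more than 100 kb upstream, 8 were higher and none lower in the intestinal tissues (background 14.9% higher), and BM was lower at 6 of them (background 17.0%). Against the mean of the other 4 tissues, LI was called higher at 5 of the 13 (background 8.80%) and SI at 3 (background 11.8%). Of the 8 intestinal calls, 6 held whichever library was left out, while the one at 243.7 kb was lost without 7 and the one at 204.4 kb without 9 of the 10 libraries in turn. The region at 538.3 kb (chr4:56070515-56071037) was at 7.85 and 14.3 CPM in LI and at 11.4 and 12.2 CPM in SI, at 2.41 and 4.53 in pancreas, 3.18 and 1.10 in lung, and 0.734 and 0.690 in BM. All 4 intestinal libraries lay above the other 6, by 2.74 ± 0.28 (adjusted p = 4.6e-06), and both BM libraries lay below all others, by -2.95 ± 0.45 (adjusted p = 0.00014). Against the mean of the others SI was higher by 2.1 ± 0.30 (adjusted p = 0.00012) and LI by 2.01 ± 0.30 (adjusted p = 0.00048), the LI call being lost without LI replicate 2 (1.50, adjusted p = 0.0566). LI and SI differed by -0.08 ± 0.40 (adjusted p = 0.927).

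The Klf4 region at 155.6 kb gave the same split, with 15.2 and 16.3 CPM in LI and 10.7 and 12.8 in SI against 2.30 to 6.26 in the other 6 libraries, a difference of 1.89 ± 0.22 (adjusted p = 1.6e-05). At 581.6 kb LI was at 13.9 and 19.2 CPM, SI at 16.0 and 19.8, lung at 13.8 and 10.2, pancreas at 11.5 and 10.1 and BM at 5.58 and 7.59. BM was lower by -1.09 ± 0.23 (adjusted p = 0.0018), lost without BM replicate 1 (-0.88, adjusted p = 0.0636), and the intestinal tissues were higher by 0.86 ± 0.17 (adjusted p = 0.0012) whichever library was left out. Around 200 kb upstream 5 regions lay within 4 kb of each other and did not move alike. The one at 202.0 kb was highest in LI, at 8.80 and 7.86 CPM against 1.14 to 4.42 elsewhere (1.51 ± 0.28, adjusted p = 0.0022). Its neighbour at 204.4 kb was at 16.3 and 15.7 CPM in LI against 8.30 to 11.4 elsewhere (0.65 ± 0.18, adjusted p = 0.03), a call lost without either LI library. The one at 201.0 kb was lowest in BM, at 4.11 and 5.34 CPM against 7.03 to 10.1 (-0.90 ± 0.24, adjusted p = 0.0097, and lost without BM replicate 1). The 2 between them, at 203.8 and 203.2 kb, were called in no tissue.

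Downstream of Klf4, at 6.0 kb, LI was at 13.0 and 13.3 CPM and SI at 7.03 and 5.99 CPM, so that the intestinal tissues parted, with LI higher by 0.64 ± 0.19 (adjusted p = 0.041) and SI lower by -0.63 ± 0.20 (adjusted p = 0.034), each lost without either library of its tissue. The region at 43.4 kb was at 19.1 and 15.3 CPM in BM and at 18.3 to 41.7 CPM in the other libraries, lower in BM by -0.87 ± 0.19 (adjusted p = 0.003), lost without BM replicate 2 (-0.72, adjusted p = 0.0679). BM and lung overlapped, as lung was at 18.3 and 30.8 CPM. The Klf4 promoter, at 49.3 to 90.6 CPM, was called in no contrast.

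Klf2 had 1 distal region lower in SI that held whichever library was left out. KLF2 is the quiescence factor of lymphocytes. The region 37.3 kb upstream was at 1.11 and 0.975 CPM in SI, below the 1.99 to 5.93 CPM of all other libraries, by -1.87 ± 0.34 (adjusted p = 0.0009). At 34.8 kb downstream, inside Eps15l1, SI was at 3.08 and 2.26 CPM against 4.19 to 8.61 (-1.27 ± 0.29, adjusted p = 0.0051), lost without SI replicate 2 (-1.07, adjusted p = 0.0515). At 12.2 kb downstream LI was at 8.46 and 9.08 CPM against 2.02 to 6.47 elsewhere (1.25 ± 0.25, adjusted p = 0.0034), lost without LI replicate 2 (1.20, adjusted p = 0.0688). At 23.2 kb upstream BM was at 14.1 and 10.2 CPM against 3.31 to 9.30 (0.94 ± 0.25, adjusted p = 0.0087), lost without BM replicate 1 (0.68, adjusted p = 0.198). At 24.9 kb downstream SI was called higher (1.49 ± 0.47, adjusted p = 0.032) on the strength of 1 library, with 8.52 and 1.36 CPM, and without SI replicate 1 the value was -0.39 (adjusted p = 0.728).

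Klf7 had 10 regions in its introns, 6 of them called in the F-test, and those at 15.9 and 18.9 kb were open in lung, pancreas and LI and low in BM and SI. KLF7 is best known from neuronal development. The region 15.9 kb into intron 1 was at 12.3 and 13.2 CPM in lung, 12.6 and 12.5 in pancreas, 11.1 and 10.4 in LI, 4.21 and 4.92 in BM and 4.19 and 5.96 in SI. No BM or SI library overlapped with the other 6. BM was lower by -1.08 ± 0.22 (adjusted p = 0.0015) and SI by -0.88 ± 0.21 (adjusted p = 0.0066), the SI value lost without SI replicate 1 (-0.69, adjusted p = 0.0786). At 18.9 kb LI was at 9.68 and 6.52 CPM, pancreas at 5.48 and 6.36, lung at 4.86 and 4.14, SI at 1.40 and 3.45 and BM at 1.71 and 1.29. Here BM was lower by -1.67 ± 0.36 (adjusted p = 0.0022) and LI higher by 1.35 ± 0.28 (adjusted p = 0.0054), the latter lost without LI replicate 1 (1.05, adjusted p = 0.148). SI was not called lower at 18.9 kb, nor was lung or pancreas called higher there. The region at 16.6 kb, between those at 15.9 and 18.9 kb, was at 5.15 to 11.7 CPM and was not called. At 72.7 kb, in intron 2, SI was highest at 3.85 and 4.32 CPM, with pancreas at 2.59 and 4.42 overlapping it (1.23 ± 0.34, adjusted p = 0.015, lost without either SI library). At 36.4 kb the intestinal libraries were lower by -0.95 ± 0.24 (adjusted p = 0.0083), with 2.53 to 7.08 CPM against 5.82 to 11.8, and the call held whichever library was left out.

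**Figure D3:**
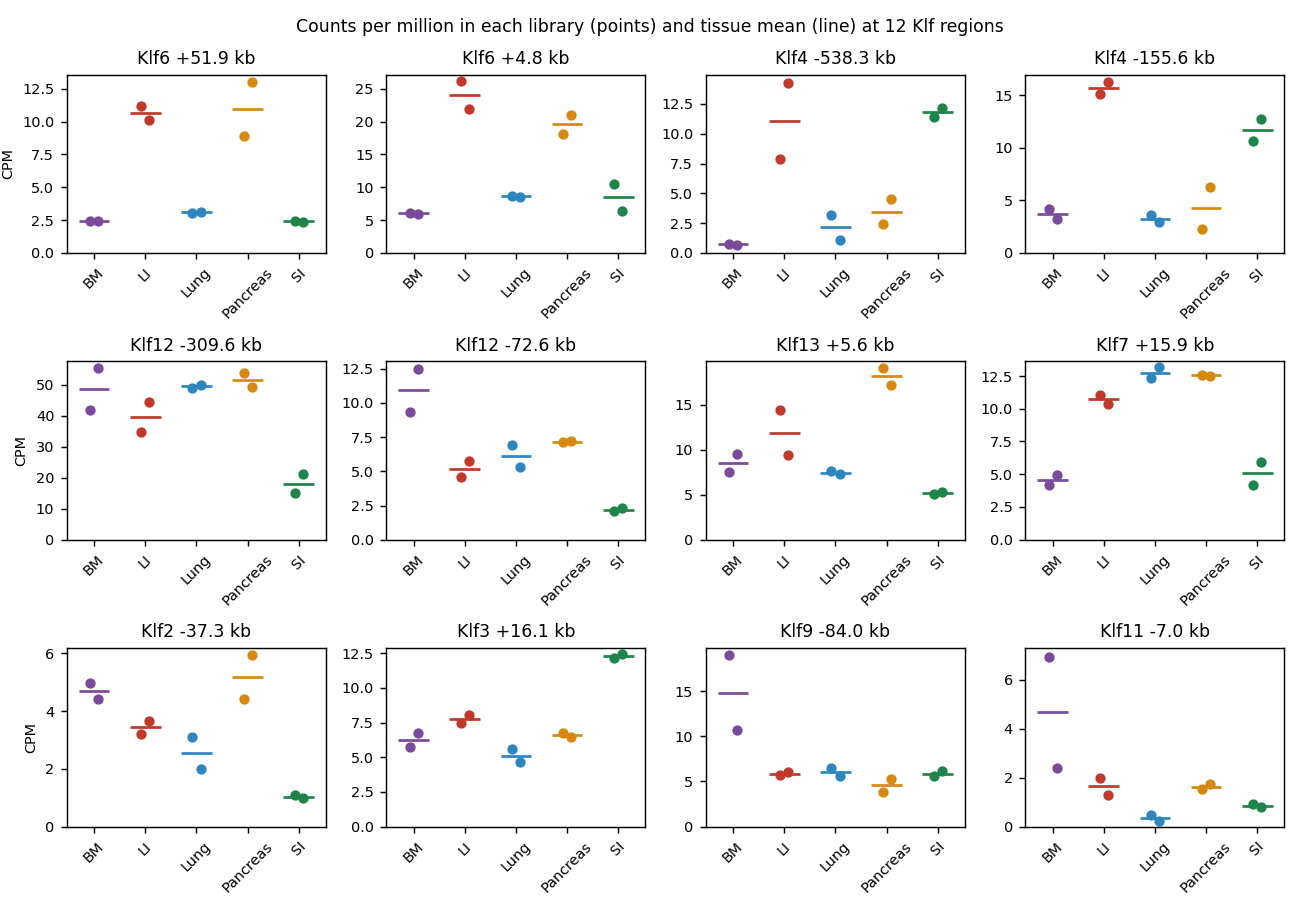
Points give CPM in each of the 2 libraries of a tissue and lines the tissue mean, at 12 KLF regions named by gene and distance from the TSS, on vertical axes that start at 0. The Klf6 panels are high in LI and pancreas, the Klf4 panels in LI and SI, and both Klf12 panels are lowest in SI, where the values of the 2 libraries are 14.9 and 21.1 CPM and 2.07 and 2.33 CPM.

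Among the genes for CtBP-binding repressors, Klf12 was lower in SI at most of its upstream regions. KLF12 was described as a repressor of the AP-2 alpha gene. SI was lower at 8 of its 15 regions and higher at none, all 8 upstream of the curated TSS, where SI was called lower at 8 of 12 (background 10.2%), and 5 of these calls held whichever library was left out. The median SI contrast over those 12 was -0.995. The tallest of them, 309.6 kb upstream (chr14:100459093-100459613), was at 14.9 and 21.1 CPM in SI and at 34.6 to 55.4 CPM in the other 8 libraries, without overlap, a difference of -1.38 ± 0.19 (adjusted p = 8.5e-05). Its neighbour at 310.2 kb was at 3.80 and 3.45 CPM in SI, 8.12 and 7.68 in BM, 9.50 and 7.56 in LI, 11.9 and 13.9 in pancreas and 14.7 and 20.2 in lung, so that it was lower in SI by -1.61 ± 0.23 (adjusted p = 0.00011). It was also higher in lung by 1.23 ± 0.18 (adjusted p = 0.00038), lost without lung replicate 2 (0.99, adjusted p = 0.0576). Another region of this cluster, at 311.9 kb, was at 8.91 and 9.68 CPM in SI and at 7.83 and 10.3 in BM and was not called in SI.

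At 72.6 kb upstream of Klf12 (chr14:100222100-100222728) SI was at 2.07 and 2.33 CPM, LI at 4.62 and 5.78, lung at 6.90 and 5.33, pancreas at 7.13 and 7.23, and BM at 9.35 and 12.5. SI was the lowest and BM the highest, by -1.68 ± 0.26 (adjusted p = 0.00023) and 1.20 ± 0.21 (adjusted p = 0.00043), and both calls held whichever library was left out. At 60.4 kb the order was another, with lung at 14.1 and 15.1 CPM above all others (0.91 ± 0.20, adjusted p = 0.0058, lost without lung replicate 2, 0.87, adjusted p = 0.146) and SI at 5.83 and 4.91 CPM. No region lay at a curated Klf12 TSS. A GC-rich region 135.0 kb upstream, within 57 bp of a predicted RefSeq TSS of Klf12, was at 16.8 and 17.2 CPM in SI and 23.1 to 39.9 CPM elsewhere (-0.73 ± 0.18, adjusted p = 0.0072). In intron 6, at 264.2 kb, pancreas was highest at 7.01 and 7.12 CPM against 1.96 to 4.88 (1.24 ± 0.24, adjusted p = 0.0033), lost without either pancreas library.

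Klf3 had 6 regions, and 2 of them differed in the F-test. KLF3 is a repressor known from B cell and erythroid development. In intron 2, at 16.1 kb, SI was at 12.2 and 12.5 CPM and the other 8 libraries at 4.64 to 8.04 CPM, a difference of 0.95 ± 0.19 (adjusted p = 0.0016) that held whichever library was left out. In intron 1, at 2.8 kb, BM was at 18.5 and 15.5 CPM against 19.3 to 35.7 (-0.67 ± 0.19, adjusted p = 0.014), lost without either BM library (adjusted p = 0.0613 and 0.159). The cluster around 8.6 to 10.1 kb was called in no tissue. At 9.2 kb the SI libraries were at 14.4 and 4.88 CPM, one above and one within the range of the rest.

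Among the genes for SIN3A-binding factors, Klf9, induced by glucocorticoids and thyroid hormone, was more open in BM upstream. The region at 84.0 kb was at 19.0 and 10.7 CPM in BM and at 3.83 to 6.47 CPM in the other 8 libraries, higher by 1.42 ± 0.22 (adjusted p = 0.00015). It was the 1 tissue-specific OCR of the 14 that held whichever library was left out. The region at 5.9 kb was at 97.3 and 97 CPM in BM against 46.9 to 74.3 (0.61 ± 0.14, adjusted p = 0.0043), lost without BM replicate 1 (0.61, adjusted p = 0.0553). In intron 1, at 9.8 kb, LI was at 11.4 and 9.64 CPM against 3.76 to 6.54 (1.01 ± 0.21, adjusted p = 0.0057), lost without LI replicate 1 (0.89, adjusted p = 0.1), whereas the region 10.5 kb from the TSS, at 6.79 to 11.3 CPM, was not called.

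Klf11, a target of TGF-beta signalling like Klf10, was more open in BM and least open in lung upstream. At 7.0 kb BM was at 6.95 and 2.39 CPM and lung at 0.470 and 0.221, with 0.801 to 2.00 in the other 6 libraries. BM was higher by 2.32 ± 0.39 (adjusted p = 0.00034) and lung lower by -2.41 ± 0.55 (adjusted p = 0.0079). Both BM libraries lay above and both lung libraries below all others, at low values. Each call was lost without 1 library of its tissue. Without BM replicate 1 BM was higher by 1.35, and without lung replicate 2 lung was lower by -1.91. At 10.4 kb BM was at 4.11 and 4.69 CPM against 1.11 to 3.45 (1.25 ± 0.33, adjusted p = 0.0091), lost without either BM library. At 17.4 kb lung was at 2.59 and 2.82 CPM, below all others at 4.10 to 9.79 (-1.10 ± 0.29, adjusted p = 0.018), lost without either lung library. Klf10 had no distal region called in any contrast. Those at 84.1 kb and 73.3 kb upstream ranged from 15.9 to 31.0 CPM and from 5.61 to 16.1 CPM, and the one 15.8 kb downstream from 6.42 to 9.07 CPM.

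Klf13 had regions of intron 1 with differing order. KLF13 activates the Ccl5 gene in T cells. At 5.6 kb pancreas was at 19.1 and 17.3 CPM, above LI at 14.4 and 9.43, BM at 7.58 and 9.57, lung at 7.68 and 7.26 and SI at 5.06 and 5.36. Pancreas was higher by 1.20 ± 0.19 (adjusted p = 0.00066) and SI lower by -1.05 ± 0.22 (adjusted p = 0.0026), and both calls held whichever library was left out. At 13.4 kb lung was at 32.1 and 26.1 CPM against 13.6 to 21.6 (0.82 ± 0.17, adjusted p = 0.0037), lost without lung replicate 1 (0.67, adjusted p = 0.103). Upstream, at 13.4 kb from the TSS, lung was the lowest at 5.57 and 4.03 CPM against 8.57 to 17.3 (-1.33 ± 0.23, adjusted p = 0.0014), lost without lung replicate 2 (-1.09, adjusted p = 0.101). At 27.0 kb SI was called higher (1.41 ± 0.28, adjusted p = 0.002) with 18.2 CPM in replicate 1 and 5.89 in replicate 2, with LI at 6.80 and 5.91 CPM, and without SI replicate 1 the value was 0.35 (adjusted p = 0.481).

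At their TSS 8 of 9 KLF genes had the highest mean in BM, Klf4 being the exception. Promoter regions of Klf2, Klf3, Klf4, Klf6, Klf7, Klf9, Klf10 and Klf13 and the region 263 bp into Klf11 ranked Klf10 first, at 260 CPM per kb on average over tissues, then Klf13 at 221, Klf7 at 169, Klf6 at 162, Klf2 at 154, Klf4 at 135, Klf9 at 122, Klf3 at 87.2 and Klf11 at 85.3, a level per length without a test between genes. Klf2, for example, was at 102 and 105 CPM in BM and 63.2 to 92.4 CPM elsewhere, and Klf6 at 126 and 116 against 69.0 to 97.9. BM was called higher at 7 of the 8 promoter regions, by 0.41 ± 0.13 (Klf10, adjusted p = 0.025) to 0.57 ± 0.15 (Klf13, adjusted p = 0.0076), and at the Klf11 region by 0.59 ± 0.15 (adjusted p = 0.0062). The background for BM higher was 27.4% of all promoters, whose median BM contrast was 0.25. With the trends with GC content and width removed, 1 of the 9 regions remained called and the Klf4 value turned to -0.08, and with total library size alone, too, 1 remained. Leaving out BM replicate 1 left 0 calls among the 9, and leaving out BM replicate 2 left 4. Leaving out lung replicate 1 left 4 and lung replicate 2 left 3, and without any other library 6 to 8 remained.

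**Figure D4:**
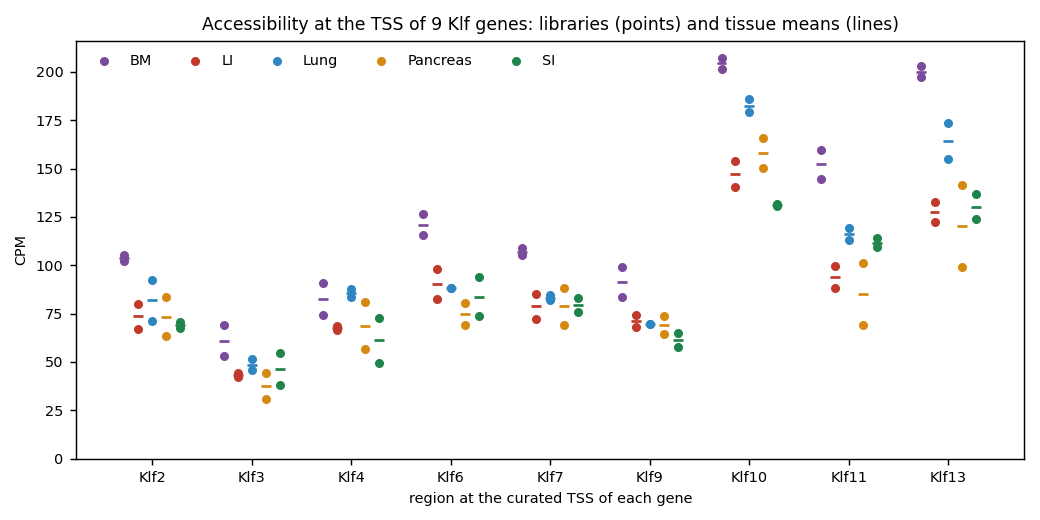
Points give CPM in the 2 libraries of each tissue and short lines the tissue mean at the region of the TSS of 9 KLF genes, on an axis from 0. BM has the highest mean at all but Klf4.

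**Figure D5:**
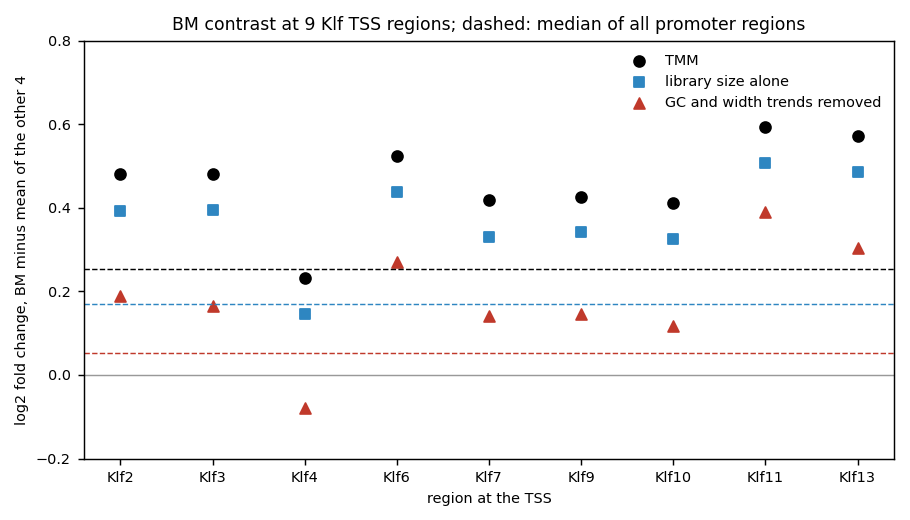
Symbols give the log2 fold change of BM against the mean of the other 4 tissues at the 9 TSS regions under TMM, library size alone and with GC and width trends removed. Dashed lines are the medians over all promoter regions, 0.25, 0.17 and 0.05, and Klf4 lies below 0 in the last setting.

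Other genes of the KLF pathway were read from lists made with results of these data known, beside the 44.2% of all regions that differed. The 15 of 16 other KLF and SP genes that had regions held 61, of which 29 differed among tissues (47.5%). SI was higher at 8 and lower at 4 of the 61 (background 11.8% and 10.2%). Of these 4, Sp5 held 2 and Klf5, the neighbour of Klf12 on chromosome 14, the other 2. The Klf5 region 26250 bp from its TSS was at 13.9 and 17.5 CPM in SI against 21.9 to 34.7 (-0.78 ± 0.17, adjusted p = 0.004). For the corepressor and modifier genes (Ctbp1, Ctbp2, Sin3a, Sin3b, Hdac1, Hdac2, Wwp1 and Fbxw7), 13 of 23 regions differed (56.5%), and BM was higher at 10 and lower at 2, where it was higher at 14.9% and lower at 17.0% of all regions and higher at 27.4% of all promoters. At the KLF2 target S1pr1, BM was lower at 6 of 16 regions and higher at 1.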

How the data were processed

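ATAC-seq counts per region were deposited for 10 libraries, 2 per tissue. The authors aligned reads to mm10 with Bowtie2 2.2.9 after FastQC 0.11.9, kept uniquely mapped reads, converted the alignments with SAMtools 1.8, called peaks with MACS2 2.1.1, kept those found in both replicates, merged them and counted reads in them. No shift of reads for the transposase is given in the sources used here.

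Here the deposited counts were fitted with edgeR 4.0.16 (R 4.3.3; TMM, quasi-likelihood) over all 49981 regions with at least 1 count. Calls needed a Benjamini-Hochberg adjusted p under 0.05. The edgeR fit was tested on simulated counts with known increases in BM at regions without low counts. The annotation, the motif search and the alternative settings were not tested in this way. All 21 chromosomes of the table matched GRCm38.p6, from which RefSeq genes and sequences came. Each region was annotated by its centre. Alternatives were DESeq2 1.42.0, other scalings, a filter of 10 counts in 2 libraries, GC and width trends, a replicate block, other thresholds and leaving out each library.

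Members and lists were chosen with earlier results of these data known. The rule for naming took, for each gene, the promoter region with the most counts and up to 4 others with the lowest F-test p. It also took every tissue-specific or commonly decreased region. Some regions under this rule are not described above, among them Klf12 at 373.3 kb upstream, commonly decreased in SI. Klf7 at 184.3 kb upstream, lower in SI, and Klf13 at 33.5 kb from the TSS, lower in BM, are 2 more. Some regions outside the rule, mostly neighbours of those under it, were described after their values were seen.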

Additional observations from a re-analysis of the deposited data

How the results depend on the processing

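With DESeq2 size factors, the filter of 10 counts, DESeq2 itself and the replicate block, all 9 counts of KLF regions stayed within 1.5 times their value. Correlations of deviations between same-numbered libraries of different tissues ran from -0.22 to 0.20. With 2 libraries per tissue they cannot show whether the replicate numbers pair the samples. The block gave 55 regions that differ among tissues, 25 called in SI, 15 each in pancreas and LI, 14 in lung and 42 in BM. It also gave 26 in the intestinal contrast, 13 tissue-specific and 16 commonly decreased. Pancreas calls went from 14 to 6 with total library size alone and to 9 with GC and width trends removed. With library size alone the intestinal contrast had 16 higher and 7 lower, lung 10 higher and 5 lower and pancreas 5 higher and 1 lower, as that scaling moved the median of all regions by -0.13 in LI, 0.18 in lung and -0.13 in pancreas.

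Keeping only regions inside a gene or within 10 kb of its TSS left 25 that differ, 9 called in SI, 6 each in pancreas and lung, 4 in LI, 21 in BM, 10 in the intestinal contrast, 9 tissue-specific and 1 commonly decreased, fewer regions being counted. A log2 fold change above 1 in size left 17 in BM, 7 in lung, 5 in pancreas, 16 in SI, 8 in the intestinal contrast, 2 tissue-specific and 6 commonly decreased. An unadjusted p gave 26 lung, 46 SI, 25 LI and 31 pancreas calls. An adjusted p in each contrast left 1 tissue-specific and 8 commonly decreased.

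Leaving out each library in turn gave 39 to 60 regions that differ, 16 to 26 in SI, 3 to 16 in pancreas, 2 to 21 in lung, 6 to 19 in LI, 15 to 45 in BM, 19 to 27 in the intestinal contrast, 5 to 15 tissue-specific and 10 to 16 commonly decreased. The lone library of a tissue is then assumed to vary like the others. Of the BM calls, 2 of 22 higher and 6 of 19 lower held whichever library was left out, of the SI calls 3 of 8 and 8 of 18, and of the lung calls 0 of 7 and 0 of 6. Without BM replicate 1 the BM value of Klf3 at 8.6 kb turned to -0.33 (adjusted p = 0.57; range without each library up to 0.87), and without SI replicate 1 the SI value of Klf3 at 9.2 kb turned to -0.35 (adjusted p = 0.504; range up to 1.23), neither being called with all libraries. With 2 pools per tissue and a median level of 8.30 CPM over the 97 regions, differences that miss the threshold are not shown to be absent.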
